A study of Homo sapiens with 14 samples.

Results

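The 10 genes examined here encode the vascular endothelial growth factors VEGFA, VEGFB, VEGFC and PGF, the receptor FLT1, the angiopoietins ANGPT1 and ANGPT2, the angiopoietin-like protein ANGPTL4, and the thrombospondins THBS1 and THBS2. They were chosen by gene symbol, with earlier results of these data known, and 10 of 10 were found among the 19410 genes of the deposited table. RNA had been sequenced from the parental MDA-MB-231 line, a mesenchymal-like triple-negative breast cancer cell line, and from 6 lines edited from it with CRISPR/Cas9. SAP30-KO1 and SAP30-KO2 target SAP30, a subunit of the SIN3 corepressor complex, the lines labelled SIN3A/3B-DKO1 and SIN3A/3B-DKO2 target the SIN3 scaffolds SIN3A and SIN3B together, and MLL1-KO1 and MLL1-KO2 target MLL1 (KMT2A), a histone H3 lysine 4 methyltransferase. Each of the 7 groups had 2 libraries, 14 in all, and the labels name no drug or hypoxia treatment. The guide vector, which also encodes Cas9, was brought in by transfection or by lentivirus and the edited cells were selected with puromycin, whereas the parental cells were the unedited line without a control guide. Each edited line was a mixture of several single-cell knockout clones, and both SIN3A/3B-DKO lines were made with the same pair of guides. Each edited line was compared with the parental cells, the lines of one genotype with each other, and the genotypes with each other.

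Vascular endothelial growth factors are secreted dimers that act on receptor tyrosine kinases of endothelial cells. VEGFA drives the growth of blood vessels mainly through KDR, PGF and VEGFB bind FLT1, and VEGFC acts on FLT4 in lymphatic vessels. ANGPT1 activates the endothelial receptor TEK (TIE2), ANGPT2 can antagonize it, ANGPTL4 inhibits lipoprotein lipase and has been described as acting either way on vessels, and the thrombospondins THBS1 and THBS2 are matrix proteins that restrain vessel growth. Tumour cells secrete many of these factors, and VEGFA and ANGPTL4 are well-known targets of hypoxia-inducible factors, ANGPTL4 also of PPAR nuclear receptors.

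The values are in TPM, a level scaled for gene length and to a fixed sum in every library, so that levels of different genes can be compared. Recovered reads per library ranged from 18415036 to 23162682. Differences were tested on log2(TPM + 0.5) with limma, and a gene was called higher or lower when its Benjamini-Hochberg adjusted p over all 13540 tested genes was under 0.05 and the difference was at least 1.5-fold. In total, 7 of the 10 genes passed the filter of 1 TPM in at least 2 libraries, and FLT1, ANGPT2 and THBS2 did not. The labels do not say that the libraries of a line came from separate cultures, so the p-values measure only the spread between libraries. In checks of the labels, SAP30 fell from 80.8 TPM in parental cells to 3.43 and 3.86 TPM in its knockout lines, and MLL from 52.8 TPM to 16.6 and 26.7 TPM in the MLL1-KO lines. MLL was also called lower in SAP30-KO1 and SAP30-KO2, at 27.3 and 33.4 TPM, near the level in MLL1-KO2. SIN3B was at 49.6 and 46.6 TPM in the lines labelled SIN3A/3B-DKO, against 76.2 TPM, but SIN3A was at 61.6 and 55.1 TPM, above the parental 44.2 TPM. RNA can persist after an edit, so the SIN3A value neither bears out nor contradicts that part of the label. The paper states that its knockout cells were checked by immunoblot, and protein was not examined here. Of the markers of MDA-MB-231 cells, VIM, CD44, AXL and CAV1 summed to between 7339.8 and 10504 TPM, and ESR1 and PGR stayed under 1 TPM in all 14 libraries. All 4 leukocyte markers stayed under 1 TPM in all 14 libraries, 1 of them at 0 throughout. Of 10 endothelial markers, 6 stayed under 1 TPM in all 14 libraries, and CDH5, CLDN5 and EMCN had at most 1 read in any group. Their summed level, carried by ESAM, ranged from 302 to 313 TPM in parental cells, 143 to 149 TPM in the SAP30-KO lines, 185 to 232 TPM in the lines labelled SIN3A/3B-DKO and 77.4 to 84.7 TPM in the MLL1-KO lines. PECAM1 went the other way, from 1.74 TPM to 3.50 and 3.33 TPM in the SAP30-KO lines and 2.87 and 3.17 TPM in MLL1-KO1 and MLL1-KO2. Of the 4 endothelial markers tested, 3 were called higher in MLL1-KO2, where 10.2% of all tested genes were. ESAM was called lower there (log2 difference of -2.11). Among the 3 was TIE1, which passed the filter only through the libraries of that line, so its call carries no weight. Whether RNA of these markers has a part in any result was not tested.

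Among the 7 tested genes, VEGFA, PGF and THBS1 moved furthest upward in any line and ANGPTL4 furthest downward. The 250 bases before the start of PGF, ANGPTL4 and THBS1 are shown from RefSeq (GRCh38.p14). The windows are chr14:74955765-74956014 on the minus strand for PGF, the first of its 2 listed starts, chr19:8363905-8364154 on the plus strand for ANGPTL4, and chr15:39580829-39581078 on the plus strand for THBS1. Capitals mark GGGCGG (the core of a GC box, which SP factors bind), ACGTG and GCGTG (the core of hypoxia response elements) and TATAAA, on either strand.
PGF: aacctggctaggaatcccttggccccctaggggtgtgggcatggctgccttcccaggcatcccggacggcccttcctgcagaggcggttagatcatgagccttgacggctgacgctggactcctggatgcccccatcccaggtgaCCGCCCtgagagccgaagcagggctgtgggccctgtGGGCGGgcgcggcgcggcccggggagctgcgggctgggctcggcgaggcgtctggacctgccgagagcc
ANGPTL4: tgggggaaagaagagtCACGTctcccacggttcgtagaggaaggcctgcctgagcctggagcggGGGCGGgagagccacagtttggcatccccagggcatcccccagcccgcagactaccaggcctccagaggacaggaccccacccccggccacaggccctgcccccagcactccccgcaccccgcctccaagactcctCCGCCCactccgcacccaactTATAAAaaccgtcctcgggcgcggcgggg
THBS1: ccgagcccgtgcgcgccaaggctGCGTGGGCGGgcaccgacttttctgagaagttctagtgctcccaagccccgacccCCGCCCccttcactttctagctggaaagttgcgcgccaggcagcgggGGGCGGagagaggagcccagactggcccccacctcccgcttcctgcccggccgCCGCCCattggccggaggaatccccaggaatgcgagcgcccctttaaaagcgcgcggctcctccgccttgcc
The PGF window shown held 2 matches to GGGCGG and none to the other motifs, and that of its other start held 3 to GGGCGG and 1 to GCGTG. ANGPTL4 held 2 matches to GGGCGG, 1 to ACGTG and 1 to TATAAA, the last of them 29 bases before the start. THBS1 held 4 matches to GGGCGG and 1 to GCGTG, which overlaps the first GGGCGG. Among 35116 RefSeq windows of the same length, 42.6% held GGGCGG, 18.5% ACGTG, 32.2% GCGTG and 10.7% TATAAA anywhere in the window. No share was computed by distance from the start, and the matches describe the letters only. In total, 7 of the 10 members had an entry.

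VEGFA (GRCh37, chr6:43737921-43754224, plus strand) was higher than in parental cells in all 6 edited lines. The parental libraries held it at 72.1 and 73.4 TPM, with 130.0 and 133 TPM in SAP30-KO1, 134 and 146 TPM in SAP30-KO2, 124 and 132 TPM in the libraries labelled SIN3A/3B-DKO1, and 116 and 104 TPM in those labelled SIN3A/3B-DKO2. The MLL1-KO1 libraries were at 217 and 221 TPM, and the MLL1-KO2 libraries at 235 and 248 TPM. Thus 12 of 12 edited libraries lay above both parental libraries, and the 4 MLL1-KO libraries lay above all others. Such counts, here and below, all rest on the same parental pair. The share of all tested genes that separate in this way was not counted. In order of mean level, the line labelled SIN3A/3B-DKO2 came after parental cells, and then SIN3A/3B-DKO1, SAP30-KO1, SAP30-KO2, MLL1-KO1 and MLL1-KO2. The libraries of SIN3A/3B-DKO1 and SAP30-KO1 overlapped, and none of the 3 pairs of lines of one genotype differed by 1.5-fold. In bulk RNA, more cells that express a gene and more RNA per cell cannot be told apart.

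Relative to parental cells the log2 difference of VEGFA was 0.85 in SAP30-KO1 and 0.93 in SAP30-KO2 (SE 0.06, adjusted p = 5.3e-07 and 2.6e-07). The largest rises were in MLL1-KO1, by 1.59, and MLL1-KO2, by 1.72 (SE 0.06, adjusted p = 2.1e-09 and 7.9e-10), or 3-fold and 3.30-fold. In the lines labelled SIN3A/3B-DKO1 and SIN3A/3B-DKO2 the difference was 0.81 and 0.59 (SE 0.06, adjusted p = 7.8e-07 and 9.4e-06). The difference in the line labelled SIN3A/3B-DKO2 was 1.5-fold, at the edge of the fold minimum. It dropped under that minimum without parental replicate 1 (log2 difference of 0.58) or without replicate 1 of that line (0.51), and also with quantile normalization (0.57), median ratio scaling (0.56) or subtraction of neighbouring genes (0.51).

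PGF (chr14:75408537-75422329, minus strand), the placenta growth factor, rose in the SAP30-KO and MLL1-KO lines. The parental libraries held it at 29.0 and 22.7 TPM, with 68.9 and 68.3 TPM in SAP30-KO1, 85.6 and 84.8 TPM in SAP30-KO2, 103 and 104 TPM in MLL1-KO1, and 96.6 and 93.8 TPM in MLL1-KO2. The libraries labelled SIN3A/3B-DKO1 were at 36.5 and 35.1 TPM and those labelled SIN3A/3B-DKO2 at 32.3 and 31.6 TPM. All 12 edited libraries lay above both parental libraries, in 3 groups that did not overlap, with the lines labelled SIN3A/3B-DKO lowest and the MLL1-KO lines highest. The log2 difference from parental cells was 1.40 in SAP30-KO1 and 1.71 in SAP30-KO2 (SE 0.08, adjusted p = 2.6e-07 and 6.4e-08), and 1.99 in MLL1-KO1 and 1.87 in MLL1-KO2 (SE 0.08, adjusted p = 7.2e-09 and 9.9e-09). In the lines labelled SIN3A/3B-DKO1 and SIN3A/3B-DKO2 the difference was 0.47 and 0.31, under the fold minimum. Without parental replicate 1, the higher of the parental pair, the value for the line labelled SIN3A/3B-DKO1 was 0.65 and passed.

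VEGFC and VEGFB differed less from parental cells. VEGFC (chr4:177604689-177714076, minus strand), the lymphatic growth factor, was at 63.9 and 58.5 TPM in parental cells and at 126 and 118 TPM in MLL1-KO2, the only line in which it was called (log2 difference of 0.99, SE 0.05, adjusted p = 2.2e-08). Both MLL1-KO1 libraries were at 74.3 TPM, and the 8 libraries of the other 4 edited lines lay between 53.7 and 78.5 TPM. VEGFB (chr11:64002056-64006736, plus strand), whose product binds FLT1, was at 49.9 and 52.0 TPM in parental cells and was called in none of the 6 lines against them, with log2 differences from -0.30 in SAP30-KO2 to 0.45 in MLL1-KO2. Of the same 6 values, 5 had an adjusted p under 0.05 in limma and none reached the fold minimum, also with voom on recovered reads. The 4 SAP30-KO libraries were at 38.9 to 44 TPM, under both parental libraries, and the other 8 edited libraries at 54.4 to 74.7 TPM, above both.

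ANGPT1 (chr8:108261710-108510283, minus strand), the agonist of TEK, was low in every library, from 1.45 to 3.85 TPM and 51 to 122 reads. It was at 2.53 and 2.37 TPM in the parental libraries, 3.01, 3.48, 3.37 and 2.98 TPM in the 4 SAP30-KO libraries, and 3.64 and 3.85 TPM in MLL1-KO2. The libraries labelled SIN3A/3B-DKO1 and SIN3A/3B-DKO2 were at 1.63, 1.45, 1.78 and 2.07 TPM, and MLL1-KO1 at 1.53 and 2.04 TPM. Hence 6 of 12 edited libraries lay above and 6 below both parental libraries, and no line was called against parental cells. The calls of 2 lines depended on the scale and the processing. With voom on recovered reads the log2 difference was -0.63 in the line labelled SIN3A/3B-DKO1 (adjusted p = 0.0088) and 0.65 in MLL1-KO2 (adjusted p = 0.0018), and both were called, against -0.53 and 0.52 on the scale used here. Both were also called with log2(TPM + 0.1), at -0.64 and 0.59. MLL1-KO2 was called too with quantile normalization (0.70). After subtraction of neighbouring genes MLL1-KO2 was called (0.77) and the line labelled SIN3A/3B-DKO1 was not (-0.45).

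ANGPTL4 (chr19:8428173-8439254, plus strand), the lipase inhibitor, was below both parental libraries in 12 of 12 edited libraries and fell in 4 lines. The parental libraries held it at 10.1 and 9.53 TPM, with 7.74 and 8.06 TPM in SAP30-KO1, 6.29 and 6.93 TPM in SAP30-KO2, 2.97 and 2.98 TPM in the libraries labelled SIN3A/3B-DKO1, and 4.81 and 5.10 TPM in those labelled SIN3A/3B-DKO2. The MLL1-KO1 libraries were at 3.22 and 4.06 TPM and the MLL1-KO2 libraries at 1.55 and 1.17 TPM, where 20 and 16 reads stood behind the values. The ranges of the 7 groups did not overlap, and both libraries labelled SIN3A/3B-DKO1 lay just under those of MLL1-KO1. The log2 difference from parental cells was -1.57 in the line labelled SIN3A/3B-DKO1 and -0.92 in SIN3A/3B-DKO2 (SE 0.12, adjusted p = 2.1e-06 and 1.2e-04), and -1.32 in MLL1-KO1 and -2.48 in MLL1-KO2 (SE 0.12, adjusted p = 4.3e-06 and 2.4e-08). The difference was -0.29 and -0.54 in SAP30-KO1 and SAP30-KO2, under the fold minimum. The SAP30-KO2 value passed without SAP30-KO2 replicate 2 (-0.60) or after subtraction of neighbouring genes (-0.65).

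THBS1 (chr15:39873280-39891667, plus strand), thrombospondin 1, was the most abundant of the 10 genes and rose in the MLL1-KO lines. It was at 381 and 371 TPM in the parental libraries, 978 and 903 TPM in MLL1-KO1, and 1113 and 1089.7 TPM in MLL1-KO2. In the other lines it was at 319 and 287 TPM in SAP30-KO1, 305 and 300.2 TPM in SAP30-KO2, 251 and 236 TPM in the libraries labelled SIN3A/3B-DKO1, and 301 and 343 TPM in those labelled SIN3A/3B-DKO2. These 8 libraries lay below both parental libraries and the 4 MLL1-KO libraries far above them. MLL1-KO1 exceeded parental cells by 1.32 and MLL1-KO2 by 1.55 on the log2 scale (SE 0.07, adjusted p = 2.4e-08 and 6.0e-09), or 2.5-fold and 2.93-fold. The log2 difference was -0.31 in both SAP30-KO lines and -0.22 in the line labelled SIN3A/3B-DKO2, under the fold minimum. In the line labelled SIN3A/3B-DKO1 it was -0.62 (SE 0.07, adjusted p = 1.6e-05), a 1.54-fold fall that missed the fold minimum without replicate 2 of that line (-0.58). FSIP1 and THBS1-AS1 overlap THBS1 on the opposite strand, and since the strand setting of the counting is not given in the sources used here, their reads cannot be told apart from its own. VEGFA and VEGFC are likewise each overlapped by a long noncoding RNA on the opposite strand.

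**Figure D1:**
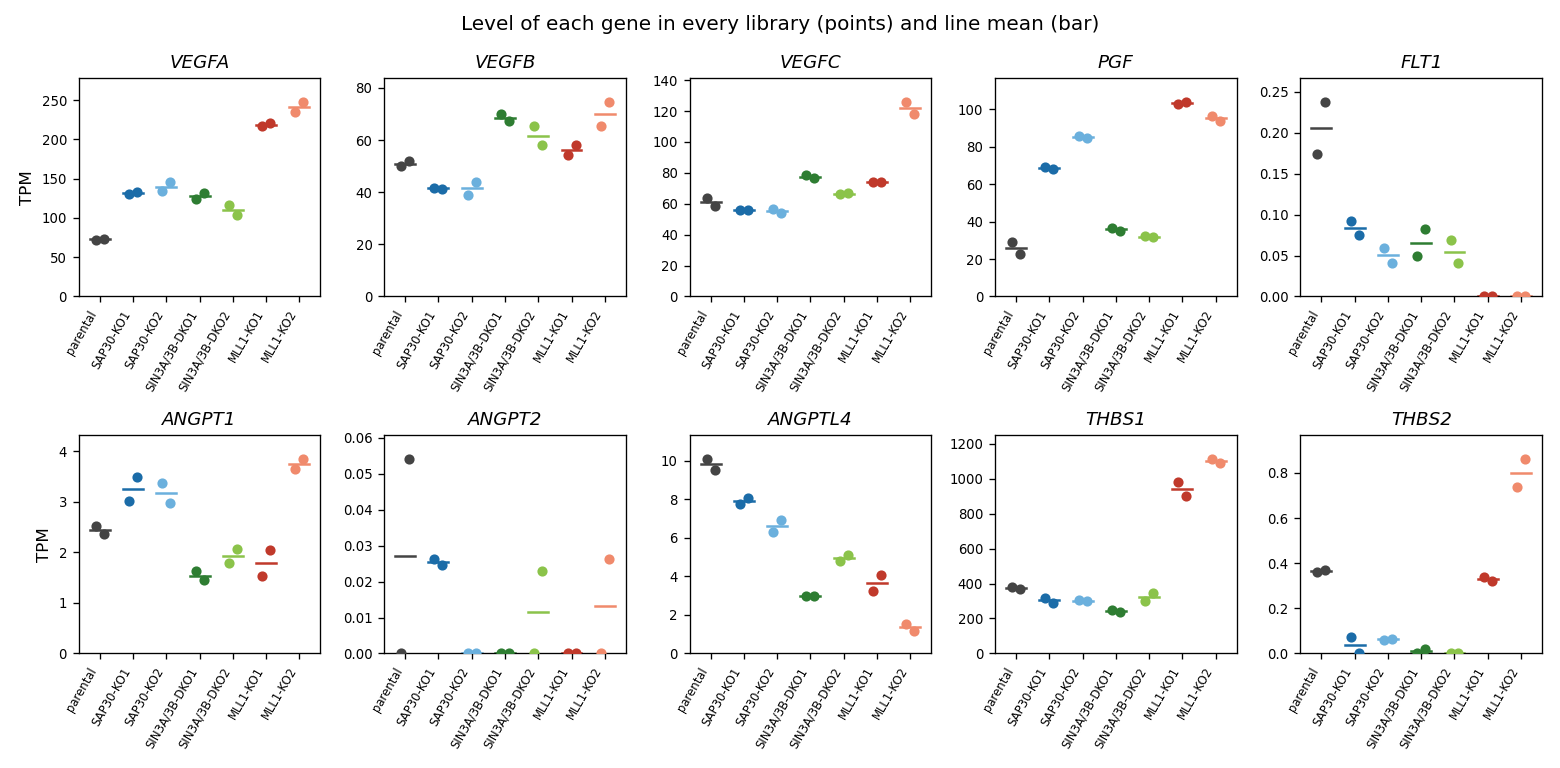
Levels in TPM (vertical axes, each starting at 0 with its own scale) of the 10 genes in the 14 libraries, with 1 panel per gene and the 7 groups along the horizontal axis. Points are libraries and bars are means of 2. VEGFA and PGF lie above parental cells in 12 of 12 edited libraries, ANGPTL4 below in 12 of 12, and THBS1 is at 903 TPM or more in the 4 MLL1-KO libraries and at 381 TPM or less in the other 10.

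**Figure D2:**
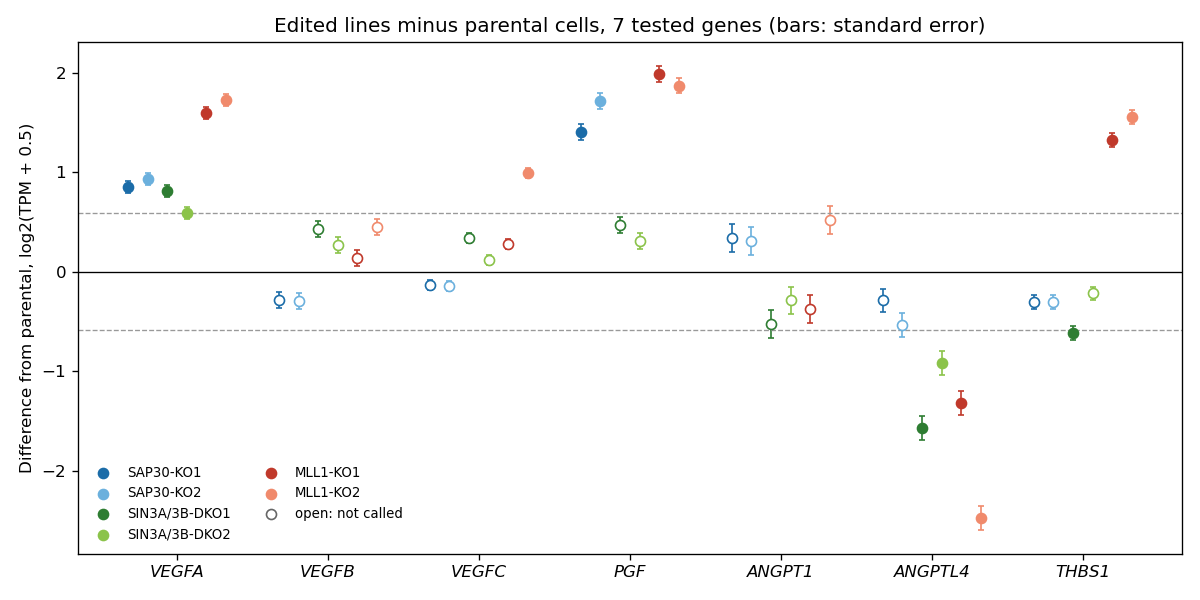
Difference of each edited line from parental cells in log2(TPM + 0.5) for the 7 tested genes. Filled points were called, open points were not, bars are standard errors and dashed lines mark the 1.5-fold minimum. VEGFA is filled in all 6 lines, PGF and THBS1 reach above 1.3 in both MLL1-KO lines, and ANGPTL4 reaches -2.48 in MLL1-KO2.

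Counted over the 7 tested genes, SAP30-KO1 and SAP30-KO2 each had 2 called higher (VEGFA and PGF), while the other 5 missed the fold minimum. There 7.80% and 7.44% of all tested genes were called higher and 7.86% and 8.12% lower. The line labelled SIN3A/3B-DKO1 had 1 higher (VEGFA) and 2 lower (ANGPTL4 and THBS1), and the line labelled SIN3A/3B-DKO2 had 1 higher (VEGFA) and 1 lower (ANGPTL4). Among all genes 7.76% and 6.0% were higher and 8.66% and 7.56% lower in these lines. MLL1-KO1 had 3 higher (VEGFA, PGF and THBS1) and 1 lower (ANGPTL4), and MLL1-KO2 had 4 higher, VEGFC in addition, and the same 1 lower. Over all genes 6.89% and 10.2% were called higher in the MLL1-KO lines and 16.3% and 14.9% lower. The members' median log2 difference was -0.13 and -0.14 in the SAP30-KO lines, 0.34 and 0.12 in the lines labelled SIN3A/3B-DKO, and 0.28 and 0.99 in MLL1-KO1 and MLL1-KO2, where the medians of all genes lay between -0.09 and 0.03. All 6 comparisons share the 2 parental libraries.

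The other 3 genes were near the limit of detection. FLT1 (chr13:28874483-29069282, minus strand), the receptor of VEGFA, VEGFB and PGF, had 15 and 20 reads in the parental libraries and 4 to 8 reads per library in the lines labelled SIN3A/3B-DKO and SAP30-KO, 8 libraries in all. It had 0 reads in 4 of 4 MLL1-KO libraries. Set against a floor of 3 reads per library, its level was at least 6.66-fold lower in MLL1-KO1 and at least 5.74-fold lower in MLL1-KO2 than the parental 0.206 TPM. With voom on the recovered reads and no filter, FLT1 was called lower in all 6 lines (adjusted p = 0.013 in SAP30-KO1 and 4.3e-07 in MLL1-KO1 at the extremes), where 7.64% to 14.6% of the 18519 genes of that fit were called lower. On log2(TPM + 0.5) with no filter it had an adjusted p of at most 0.0046 but missed the fold minimum in all 6, since the pseudocount exceeds its level.

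THBS2 (chr6:169615875-169654145, minus strand), the second thrombospondin, had 15 reads in each parental library, 0 to 3 reads per library in the lines labelled SIN3A/3B-DKO and SAP30-KO, 16 and 15 reads in MLL1-KO1, and 29 and 36 reads in MLL1-KO2. By library it was thus low in the lines where THBS1 lay below parental cells and not low in the MLL1-KO lines. The pooled level of parental cells over that of the line was 10.5 in SAP30-KO1 (3 reads, 95% exact interval of 3.28 to 53.9) and 5.83 in SAP30-KO2 (6 reads, 2.39 to 17.1). In the line labelled SIN3A/3B-DKO1 it was 35.1 on 1 read (5.83 to 1431). Both libraries labelled SIN3A/3B-DKO2 had 0 reads, and against the floor of 3 reads per library the level there was at least 5.87-fold lower. Intervals and floors cover counting error only. Without the filter the gene was called lower in these 4 lines and higher in MLL1-KO2, both on log2(TPM + 0.5) (0.59 in MLL1-KO2, adjusted p = 1.2e-04) and with voom (1.15, adjusted p = 0.035). On the log2 scale of that fit 6.39% to 7.20% of genes were called lower in the 4 lines and 8.0% higher in MLL1-KO2. The antisense gene THBS2-AS1 overlaps it. ANGPT2 (chr8:6357153-6420930, minus strand, within MCPH1), the TEK antagonist, had 0 to 2 reads in every library, and no difference was detectable at this depth.

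The lines of one genotype were compared next. Between SAP30-KO1 and SAP30-KO2, 0 of 7 genes were called by limma, with 1 at an unadjusted p under 0.05 and 0 called by voom, where 0.148% of all genes were called. PGF was the gene with that p, at a log2 difference of -0.31 (adjusted p = 0.18). Between the lines labelled SIN3A/3B-DKO1 and SIN3A/3B-DKO2, ANGPTL4 was called (log2 difference of -0.65, SE 0.12, adjusted p = 0.0078), against 2.23% of all genes. That call did not hold without either library of SIN3A/3B-DKO1 (adjusted p = 0.052 and 0.056) or without replicate 2 of SIN3A/3B-DKO2 (0.057), with only the libraries compared (0.11), or with log2(TPM + 1), where the difference was -0.58. Between MLL1-KO1 and MLL1-KO2, 3 of 7 were called, where 10.4% of all genes were. VEGFC and ANGPT1 were lower in MLL1-KO1 (-0.71, SE 0.05, adjusted p = 1.3e-06, and -0.90, SE 0.14, adjusted p = 4.1e-04), and ANGPTL4 was higher there (1.15, SE 0.12, adjusted p = 3.4e-05).

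Between genotypes, the MLL1-KO lines stood apart by THBS1, at 1021 TPM on average against 303 TPM in the SAP30-KO lines and 283 TPM in the lines labelled SIN3A/3B-DKO (log2 differences of 1.75 and 1.86, SE 0.05, adjusted p = 1.0e-10 and 5.7e-11). All SE and p-values between genotypes rest on the spread between libraries within a line. They do not measure the spread between lines of one genotype. VEGFA was also higher in the MLL1-KO lines, by 0.76 and 0.95 (SE 0.04, adjusted p = 2.3e-08 and 3.3e-09). Against the SAP30-KO lines, VEGFC (0.77) and VEGFB (0.59) were higher in the MLL1-KO lines and ANGPTL4 lower (-1.48), so that 5 of 7 were called, where 19.8% of all genes were. PGF, at 0.38, passed the fold minimum there after subtraction of neighbouring genes (0.60). Against the lines labelled SIN3A/3B-DKO, PGF was higher (1.54) and ANGPTL4 lower (-0.66) in the MLL1-KO lines, so that 4 of 7 were called, where 19.9% of all genes were. The libraries of these lines overlapped for ANGPTL4, and its call was lost without MLL1-KO1 replicate 1 or MLL1-KO2 replicate 2 (-0.58 each), with log2(TPM + 1) (-0.56), and with quantile normalization (-0.48), median ratio scaling (-0.58) or subtraction of neighbouring genes (-0.52). ANGPT1, at 0.48, was not called but passed with quantile normalization (0.64), voom (0.60) or subtraction of neighbouring genes (0.65).

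The SAP30-KO lines and the lines labelled SIN3A/3B-DKO differed in 4 of 7 genes, where 7.47% of all genes were called. PGF was at 76.9 TPM in the SAP30-KO lines and 33.9 TPM in the others (log2 difference of 1.17, SE 0.06, adjusted p = 8.6e-08). ANGPTL4 was at 7.26 and 3.97 TPM (0.83, SE 0.09, adjusted p = 2.1e-05) and ANGPT1 at 3.21 and 1.73 TPM (0.74, SE 0.10, adjusted p = 1.2e-04). VEGFB was lower in the SAP30-KO lines, at 41.4 against 65.2 TPM (-0.65, SE 0.06, adjusted p = 4.6e-06). For VEGFA the difference was 0.19 (SE 0.04), and for THBS1 0.11 (SE 0.05), both under the fold minimum.

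The edited lines also differed from parental cells over stretches of chromosomes, and each gene was set beside the running median of 51 tested genes centred on it. Around VEGFB that median was -0.49 in SAP30-KO1 and -0.45 in SAP30-KO2. After its subtraction VEGFB was at 0.19 and 0.15 against parental cells, and the calls between the SAP30-KO lines and the other genotypes were lost (-0.13 against the lines labelled SIN3A/3B-DKO and 0.13 for the MLL1-KO lines). Around VEGFC the median lay at -0.25 in MLL1-KO1 but at 0.19 in MLL1-KO2. Subtraction left the difference of VEGFC between these lines at -0.27, under the fold minimum, and that in MLL1-KO2 against parental cells at 0.80, still called. Around PGF and THBS1 the medians lay between -0.11 and 0.16 in the 6 lines, and the calls of both genes were kept.

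**Figure D3:**
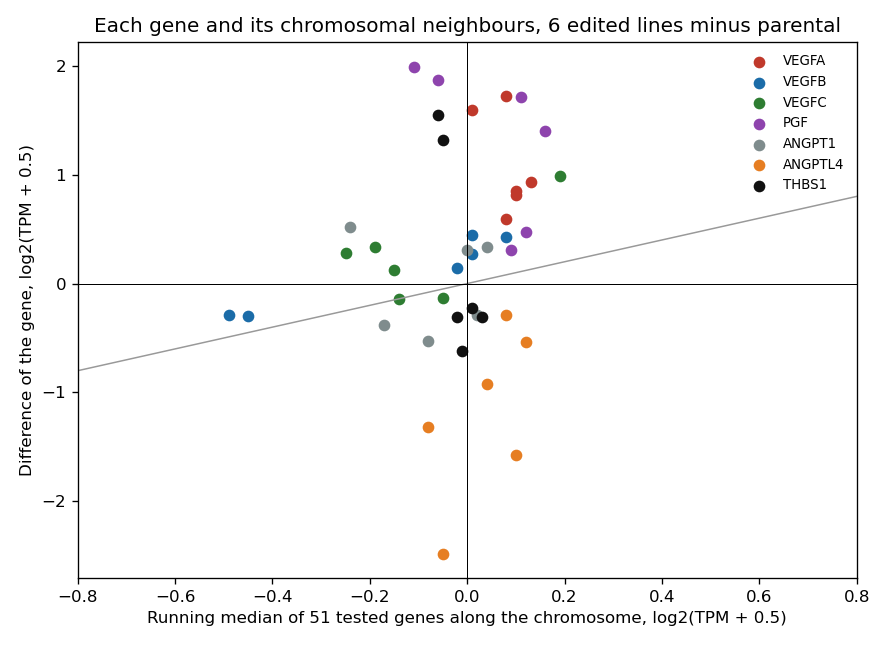
Difference of each tested gene from parental cells (vertical axis) against the running median of 51 tested genes centred on it along the chromosome (horizontal axis), both in log2(TPM + 0.5), with 1 point per gene and edited line and a grey line of equality. The 2 VEGFB points at the far left are SAP30-KO1 and SAP30-KO2, at -0.49 and -0.45, and the points of PGF, VEGFA, THBS1 and ANGPTL4 that are far from 0 have neighbours within 0.16 of it.

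The pro-angiogenic genes were then set against the anti-angiogenic ones, with no test. The summed level of VEGFA, VEGFB, VEGFC, PGF and ANGPT1 came to 217 and 209 TPM in the parental libraries. That of THBS1 and THBS2 came to 381 and 371 TPM there. In the SAP30-KO lines the first sum lay between 299 and 331 TPM and the second between 287 and 319 TPM. In the MLL1-KO lines both sums were high, at 451 to 538 TPM and 904 to 1114 TPM. The log2 ratio of the sums was -0.82 ± 0.01 in parental cells, -0.01 ± 0.11 in SAP30-KO1, 0.10 ± 0.06 in SAP30-KO2, 0.35 ± 0.06 in the line labelled SIN3A/3B-DKO1, -0.24 ± 0.21 in that labelled SIN3A/3B-DKO2, and -1.04 ± 0.11 and -1.05 ± 0.04 in MLL1-KO1 and MLL1-KO2 (SD, n = 2). All 8 libraries of the first 4 of these lines lay above both parental libraries, and the 4 MLL1-KO libraries lay below them. The order of the MLL1-KO lines and parental cells turned with the definition, since the log2 ratio of VEGFA to THBS1 alone was -2.37 ± 0.04 in parental cells and -2.10 ± 0.10 and -2.19 ± 0.07 in MLL1-KO1 and MLL1-KO2. The sums follow their most abundant genes, THBS1 above all.

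**Figure D4:**
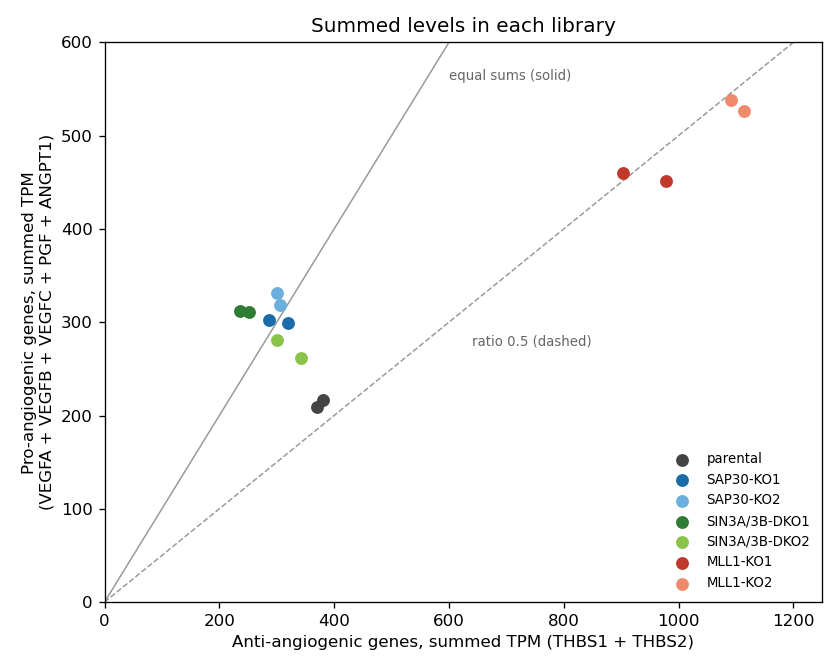
Summed TPM of VEGFA, VEGFB, VEGFC, PGF and ANGPT1 (vertical axis) against summed TPM of THBS1 and THBS2 (horizontal axis) in the 14 libraries. Lines mark equal sums and a ratio of 0.5. Parental libraries lie at 209 to 217 TPM against 371 to 381 TPM, the MLL1-KO libraries lie at high values of both, and the libraries labelled SIN3A/3B-DKO1 lie above the line of equal sums.

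Among the 4 growth factors, VEGFA made up 34.5% of the summed TPM in parental cells and 40.7% to 48.3% in the edited lines. PGF made up 12.3% in parental cells, 23.1% and 26.5% in the SAP30-KO lines, 22.9% and 18.0% in MLL1-KO1 and MLL1-KO2, and 11.5% and 11.8% in the lines labelled SIN3A/3B-DKO1 and SIN3A/3B-DKO2. The share of PGF in the lines labelled SIN3A/3B-DKO was therefore close to the parental one, while the SAP30-KO and MLL1-KO lines were above it. Over the 7 group means, which share their library preparation and the parental origin, the log2 levels of VEGFA and PGF had a Pearson r of 0.88, those of VEGFB and VEGFC 0.82, and those of VEGFA and THBS1 0.75. ANGPTL4 had an r of -0.94 with VEGFC, -0.80 with VEGFB and -0.78 with VEGFA. These were the 6 largest in size of 21 pairs. The genes most like each member over the same 7 means were USF2, PPP2R2C and TMEM164 for VEGFA (r of 0.991 to 0.993), CEACAM19, GALNT14 and APOBEC3F for PGF (0.989 to 0.994), and PAK6, EPHB2 and C17orf51 for THBS1 (0.994 to 0.996). They were MUS81, SLIT2 and ARAP1 for VEGFB (0.978 to 0.993), and ZNF696, ANKRD36 and CANT1 for VEGFC (0.991 to 0.997). These were the highest of 13540 values of r for each gene, and no test was made of them.

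Receptors and other genes of the same pathways were described by lists. Of 9 further VEGF and TIE ligands and receptors, 5 were tested. In each SAP30-KO line and in the line labelled SIN3A/3B-DKO2, 1 was called lower. In MLL1-KO1, 2 were called higher and 2 lower, and in MLL1-KO2, 3 were called higher. Outside MLL1-KO2 the median log2 difference of the tested genes ran from -0.46 in SAP30-KO1 to -0.02 in the line labelled SIN3A/3B-DKO1. The medians of all genes lay between -0.09 and 0.03. In MLL1-KO2 the median of the list was 0.82, but it depended on TIE1, described below, and is not set against all genes. NRP2, a coreceptor of VEGFC, rose from 9.56 ± 0.132 TPM in parental cells to 17.4 ± 0.46 and 25.7 ± 0.454 TPM in MLL1-KO1 and MLL1-KO2 (SD, n = 2). NRP1, the coreceptor of VEGFA, was at 267 TPM in parental cells and within 0.22 of it on the log2 scale in all 6 lines. KDR, the main receptor of VEGFA, went apart in the MLL1-KO lines, at 0.529 TPM in MLL1-KO1 and 6.33 TPM in MLL1-KO2 against 3.10 TPM in parental cells (log2 differences of -1.82 and 0.93, both called), and was named after its values were seen. TIE1, an orphan receptor of the TIE family, fell from 0.850 TPM to 0.0336 and 0 TPM in SAP30-KO1 and SAP30-KO2, and the line labelled SIN3A/3B-DKO2, at 0.347 TPM, was also called lower. Like KDR it went apart in the MLL1-KO lines, at 0.0770 TPM in MLL1-KO1 and 1.88 TPM in MLL1-KO2, both called. However, TIE1 reached 1 TPM only in the MLL1-KO2 libraries, at 1.71 and 2.06 TPM on 46 and 59 reads. It passed the filter through these alone, so its higher call there and its place in the count and the median carry no weight. Of the angiopoietin-like genes besides ANGPTL4, ANGPTL2 alone of 6 was tested. It was at 34.7 TPM in parental cells, 20.6 and 19.4 TPM in the lines labelled SIN3A/3B-DKO, 80.1 and 130.0 TPM in the MLL1-KO lines and 52.5 TPM in SAP30-KO1, and was called in all 5. The call in SAP30-KO1 was at the edge of the fold minimum (log2 difference of 0.59). SAP30-KO2, at 47.9 TPM, was just under it (0.46) and not called.

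Of 8 other angiogenesis inhibitors, 5 were tested, and in each of the 6 lines 1 was called higher and 2 to 4 lower, with medians from -1.14 in the line labelled SIN3A/3B-DKO1 to 0.11 in MLL1-KO2. TIMP3, which inhibits matrix metalloproteinases and VEGF signalling, fell in all 6 lines, from 822 TPM to between 125 and 410.2 TPM. COL18A1, the source of endostatin, fell from 37.7 TPM to 22.4 TPM in both SAP30-KO lines and to 19 and 19.2 TPM in the lines labelled SIN3A/3B-DKO. It was at 78.7 and 54.1 TPM in MLL1-KO1 and MLL1-KO2, called in the first. VASH1, vasohibin 1, rose from 1.74 TPM to between 3.11 and 5.44 TPM in 5 lines and was at 1.72 TPM in MLL1-KO1. VASH2 fell from 3.17 TPM to 1.13 and 1.03 TPM in the MLL1-KO lines and to 1.17 TPM in the line labelled SIN3A/3B-DKO1. It is in the list as a vasohibin but has been described as promoting vessel growth. Without it, as counted after its values were seen, 3 of 4 were lower in each SAP30-KO line and each line labelled SIN3A/3B-DKO and 1 of 4 in each MLL1-KO line, with medians from -1.36 to 0.31. SERPINF1, pigment epithelium-derived factor, fell from 1.42 TPM to 0.259 and 0.118 TPM in the SAP30-KO lines, and both lines labelled SIN3A/3B-DKO, at 0.0384 and 0.392 TPM, were also called lower. Its parental libraries were themselves apart, at 2.09 and 0.745 TPM on 23 and 8 reads. Of 5 other thrombospondin genes and receptors, 2 were tested, and THBS3 in the line labelled SIN3A/3B-DKO1 (log2 difference of 0.84) was the single call in the 6 lines.

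Of 6 other angiogenic ligands in the table, 5 were tested, and at most 3 were called higher and at most 2 lower in any line, with medians from -0.37 to 0.73. IL8, a chemokine that attracts neutrophils and endothelial cells, rose from 18.3 TPM to 98.7 and 64.2 TPM in the lines labelled SIN3A/3B-DKO and fell in SAP30-KO2 (10.6 TPM). CYR61, a matrix-associated ligand of integrins, fell from 1057 TPM to 502 and 530 TPM in the MLL1-KO lines. FGF1, a fibroblast growth factor, fell from 7.67 TPM to 4.42 and 3.96 TPM in the SAP30-KO lines but rose to 13.2 TPM in the line labelled SIN3A/3B-DKO1. ANG, angiogenin, rose from 4.46 TPM to 7.26 and 8.34 TPM in the SAP30-KO lines and to 7.76 TPM in the line labelled SIN3A/3B-DKO1. Of 13 hypoxia response genes, all tested, 3 were called higher in each SAP30-KO line, 2 in the line labelled SIN3A/3B-DKO1, and 5 and 3 in MLL1-KO1 and MLL1-KO2. In the line labelled SIN3A/3B-DKO2 3 were lower, in SIN3A/3B-DKO1 and MLL1-KO1 1 each and in MLL1-KO2 2. The medians of the list lay between -0.11 in the line labelled SIN3A/3B-DKO2 and 0.45 in MLL1-KO1. NDRG1, a stress-induced gene at 126 TPM in parental cells, rose to 309.7 and 337 TPM in the SAP30-KO lines, and the MLL1-KO lines had 558 and 729 TPM, and the line labelled SIN3A/3B-DKO1 had 239 TPM, all called. CA9, a carbonic anhydrase, was at 1.18 TPM in parental cells and rose to 7.04 and 7.20 TPM in the SAP30-KO lines. In MLL1-KO1 it rose to 11 TPM, in MLL1-KO2 to 2.89 TPM and in the line labelled SIN3A/3B-DKO1 to 2.05 TPM, but it fell to 0.0773 TPM in the line labelled SIN3A/3B-DKO2. EGLN3, an oxygen-sensing prolyl hydroxylase, was at 4.33 TPM in parental cells and at 11.3 and 13.7 TPM in the SAP30-KO lines, and both MLL1-KO lines, with 7.15 and 6.95 TPM, were also called higher. EPAS1, which encodes HIF-2 alpha, fell from 77.5 TPM to 32.1 and 20.7 TPM in the MLL1-KO lines, and HIF1A, which encodes HIF-1 alpha, from 415 TPM to 248 TPM in MLL1-KO2. P4HA1, a collagen prolyl hydroxylase, fell from 97.6 TPM to 50.6 and 48.1 TPM in the lines labelled SIN3A/3B-DKO.

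Of 7 PPAR genes and targets, 6 were tested, and 1 to 4 were lower and at most 1 higher in each line, with medians from -0.89 in MLL1-KO2 to -0.29 in SAP30-KO1. CPT1A, which lets fatty acids into mitochondria, was at 66.5 TPM in parental cells, 31.4 and 27.6 TPM in the SAP30-KO lines, and 18.7 and 2.72 TPM in MLL1-KO1 and MLL1-KO2, and fell in all 4. It also fell in the line labelled SIN3A/3B-DKO1, to 43 TPM. In MLL1-KO2 ANGPTL4, CPT1A, PPARG (154 to 49.7 TPM), PDK4 (4.31 to 1.93 TPM) and PLIN2 (177 to 102 TPM) were all called lower. PPARD was called higher there (43.5 to 69 TPM). PPARA was at 9.01 TPM in parental cells, 5.29 TPM in MLL1-KO1 and 9.88 TPM in MLL1-KO2. PPARG also fell in the SAP30-KO lines, to 98.1 and 82.7 TPM, and PDK4 in the lines labelled SIN3A/3B-DKO, to 2.28 and 1.42 TPM, and in SAP30-KO2, to 2.33 TPM. PPARD also rose to 82.1 and 68.3 TPM in the lines labelled SIN3A/3B-DKO. The shares of all genes called in each comparison, given above, are the background of these counts too.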

How the data were processed

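RNA-Seq values of 14 libraries, 2 for each of 7 groups, were used, grouped by the submitters' labels. Per the labels and the paper, the authors used the KAPA mRNA HyperPrep kit and an Illumina NextSeq instrument, and no replicates were pooled. The submitters' processing notes name FastQC 0.11.2, TopHat, featureCounts and hg19, and the strand setting of the counting is not given in the sources used here. The authors deposited 1 table of values named RPKM, which were used as TPM because every library summed to 1000000. Differences in total RNA cannot be seen in such values. Neither the labels nor the paper state a test for them.

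The steps between low TPM gave back whole reads, within 0.02 reads, for 18519 of 18519 genes above 0 (100.0%). A gene above 0 in only 1 library comes out as 1 read by construction, and reads with a common factor are undercounted. The share is therefore no check of the recovery for such genes. Genes with at least 1 TPM in at least 2 libraries were tested (13540 of 19410). The main test used limma 3.58.1 (R 4.3.3) on log2(TPM + 0.5), with a mean for each of 7 groups, a mean-variance trend and 7 residual degrees of freedom, in 12 comparisons. A call required a Benjamini-Hochberg adjusted p under 0.05 within the comparison and 1.5-fold. Log2 differences on this scale understate the change of low genes. The design had been written for RPKM and was kept. The fit was tested on simulated data.

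The 10 members and the lists beside them were chosen with earlier results of these data known. All members are given, the genes of related lists are named where called in the same direction in both lines of a genotype, at most 6 a list, and the others were chosen after their values were seen. For members with a mean of at least 10 TPM the 3 genes of highest Pearson r over 7 group means are named. Alternatives were pseudocounts of 0.1 and 1, no filter, quantile normalization, median ratio scaling, a 2-fold or no fold minimum, only the groups compared, a replicate block, leaving out each library, voom on recovered reads, and subtraction of a running median of 51 genes (GRCh37 positions from GENCODE, 97.9% of tested genes). Voom without a filter, for the 3 low genes, and the inhibitor list without VASH2 were added after seeing the data. Promoter windows are from RefSeq. Python 3.11.15 with pandas 2.3.3 and numpy 2.4.6 was used. Protein, ChIP-Seq and ATAC-seq data were not used here.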

Additional observations from a re-analysis of the deposited data

Results flagged for a closer look

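The 2 lines of one genotype differed, in a direct comparison within the same fit, for 4 results. ANGPTL4 was lower in the line labelled SIN3A/3B-DKO1 than in SIN3A/3B-DKO2, with a log2 difference of -0.65, although both lay below parental cells. In MLL1-KO1 against MLL1-KO2, VEGFC differed by -0.71, ANGPT1 by -0.90 and ANGPTL4 by 1.15. ANGPT1 lay on opposite sides of parental cells in these lines, at 1.78 and 3.75 TPM against 2.45 TPM. The running median of neighbouring genes around VEGFC differed between the same lines by -0.44, and its subtraction left a difference of -0.27.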

How the results depend on the processing

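Across the 12 comparisons and 7 tested genes, 1344 values were recomputed under the alternatives, and 1240 kept their direction and their side of the threshold, 41 lost the call, 43 gained one and 20 changed sign, 0 of these called in either fit. Subtraction of neighbouring genes turned VEGFB in SAP30-KO1 and SAP30-KO2 from -0.29 and -0.30 to 0.19 and 0.15. The other 18 were near 0 throughout. For VEGFB between the MLL1-KO lines and the lines labelled SIN3A/3B-DKO the value of -0.05 became 0.02 with quantile normalization, 0.04 with median ratio scaling and 0.00 with neighbouring genes subtracted. Between the SAP30-KO lines, values of 0.00 to 0.03 became -0.02 (VEGFB) and 0.00 (VEGFC) with quantile normalization, -0.01 (VEGFB), 0.00 (VEGFC) and -0.01 (THBS1) with median ratio scaling, -0.07 (VEGFC), -0.01 (ANGPT1) and -0.05 (THBS1) with neighbouring genes subtracted, and with a library left out ranged from -0.09 to 0.09 (VEGFB), -0.03 to 0.06 (VEGFC), -0.06 to 0.12 (ANGPT1) and -0.07 to 0.07 (THBS1). A 2-fold minimum left 1 member called in SAP30-KO1, 1 in SAP30-KO2, 1 in SIN3A/3B-DKO1 and 0 in SIN3A/3B-DKO2 against parental cells, 0 between the lines labelled SIN3A/3B-DKO, 1 between the MLL1-KO lines, 1 for SAP30-KO against SIN3A/3B-DKO, and 2 for MLL1-KO against either other genotype. No fold minimum gave 5 and 6 in the SAP30-KO lines, 7 and 5 in the lines labelled SIN3A/3B-DKO, 4 between the lines labelled SIN3A/3B-DKO and 5 between the MLL1-KO lines. Against parental cells it also added VEGFC and ANGPT1 in MLL1-KO1 and VEGFB and ANGPT1 in MLL1-KO2, while the 2-fold minimum removed VEGFC in MLL1-KO2. The share of all genes called with a 2-fold or no fold minimum is not given, so these counts of members have no background beside them. The count in SIN3A/3B-DKO2 was 1 with quantile normalization, median ratio scaling or neighbouring genes subtracted, and 1 to 2 with a library left out. Between the lines labelled SIN3A/3B-DKO it was 0 with log2(TPM + 1) or only the groups compared, and 0 to 1 with a library left out. The cause was not tested. VEGFB in MLL1-KO against SAP30-KO lines missed the fold minimum without SAP30-KO2 replicate 1 (0.55), MLL1-KO1 replicate 2 (0.57) or MLL1-KO2 replicate 2 (0.55). ANGPT1 in SIN3A/3B-DKO1 passed it without that line's replicate 1 (-0.60).

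The log2 ratio of pro-angiogenic to anti-angiogenic genes in parental cells was -0.75 with ANGPT2 and ANGPTL4 counted as pro-angiogenic. VEGFA over THBS1 alone gave -2.37 in parental cells, -1.20 and -1.11 in the SAP30-KO lines, -0.93 and -1.55 in the lines labelled SIN3A/3B-DKO, and -2.10 and -2.19 in the MLL1-KO lines. Quantile normalization moved the median of all genes in MLL1-KO1 from -0.09 to 0.04, and the numbers called higher and lower from 933 and 2210 to 1451 and 1545 there and from 1387 and 2021 to 1788 and 1680 in MLL1-KO2. Median ratio scaling gave 1179 and 1836 in MLL1-KO1. With the replicate number as a block, 84 of 84 member values kept their side of the threshold, for example VEGFA in SAP30-KO1 at 0.85. Deviations of same-numbered libraries had a mean correlation of 0.01, from -0.07 to 0.08 over 21 pairs of groups. These values cannot show whether same-numbered libraries were handled together, and the labels do not say. Depth limits FLT1, ANGPT2 and THBS2, with at most 36 reads in a library.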
